A study of Mus musculus with 6 samples.

Results

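The nuclear pore and the soluble receptors that carry cargo through it were followed as a set of 42 genes in sorted kidney cells of newborn mice, labelled collecting duct, that had or lacked Bdkrb2, the gene of the bradykinin B2 receptor. The set was chosen by gene symbol (Nup, Kpna, Ipo or Xpo followed by digits, plus Kpnb1, Tnpo1, Tnpo2, Tnpo3, Ranbp2, Ran and Tpr) and by measured signal, which had to be well above background in the sample channel on at least 3 of the 6 arrays. Of 46 such genes named on the array, 42 passed, out of 14755 genes tested in all. The 42 were well above background on all 6 arrays, whereas Nup214, Nup210l, Nup62cl and Kpna7 were so on 0 of 6 arrays and have no level here, so no gene lay close to the limit. The rule set no limit on the difference between genotypes, but the set was proposed with these ratios in view, and its counts below are a description and not a test of the set.

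Nuclear pores are large assemblies in the nuclear envelope. A scaffold of an outer ring, built from the Y complex, and an inner ring holds a central channel of nucleoporins rich in phenylalanine-glycine repeats, with filaments on the cytoplasmic face and a basket on the nuclear face. Importins bind cargo in the cytoplasm and release it in the nucleus when they meet the GTP-bound form of the small GTPase Ran, and exportins bind cargo together with Ran-GTP and release it outside. Dividing cells take their pores apart and rebuild them at each mitosis, and growing nuclei insert further pores before it.

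The KO samples came from pups that carried Cre driven by Hoxb7, which is active in the ureteric bud lineage, together with Bdkrb2 f/f and the R26RtdTomato reporter. The WT samples carried the same Cre and reporter with Bdkrb2+/+. Sorting on GFP and dsRED took positive cells from kidneys at day 1 after birth, all animals were of strain C57BL/6 and on food with 5% sodium, so that no group here was free of the salt load. There were 3 arrays per group, with the sample RNA in Cy5 and the RNA of WT replicate 1 in Cy3 on every array, so values are log2 ratios to WT replicate 1 and the array of that sample set its RNA against itself. The number of animals behind a sample is not in the labels, the only mating they give is between F/F parents, and p-values measure the spread between these samples. The single Bdkrb2 probe was well above background on 0 of 6 arrays and could not check the genotype.

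The share of spots with sample signal well above background was 49.8% to 52.7% in WT and 56.6% to 57.5% in KO. Array names place the 3 KO arrays and WT replicate 1 in row 1 of the slide and WT replicates 2 and 3 in row 2. Cell markers differed widely between the groups. Of the principal and intercalated cell markers that define the labelled cells, 11 of 11 and 10 of 10 tested were called lower in KO, with array medians of -0.09 to 0.08 and -0.46 to 0.20 in WT against -2.18 to -1.81 and -2.62 to -2.24 in KO (Scnn1g was not well above background). Of the nephron progenitor and stroma markers, 8 of 9 and 9 of 10 were called higher, with array medians of -0.16 to 0.12 and -1.15 to 0.08 in WT against 1.63 to 2.30 and 1.43 to 1.61 in KO. Of 7 immune markers 6 were higher and 1 lower, and of 8 endothelium markers 7 were lower. In such sorted bulk samples, fewer cells of a type and less RNA per cell cannot be told apart, and the part of these shifts in the values below was not tested.

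Of the 42 genes, 14 (33.3%) rose in KO and 0 fell, while 28 were not called (limma, Benjamini-Hochberg adjusted p under 0.05 over all genes). Among all genes tested 15.3% rose, 20.0% fell and 35.3% were called in either direction, so the share of pore and transport genes called was near that of all genes, and the calls lay on the higher side. At an unadjusted p under 0.05, 19 of the 42 were higher and 0 lower. Every KO array lay above every WT array for 20 genes (47.6%), against 23.9% of all genes, and below for 3 (7.14%), against 28.2%. The median difference over the 42 genes, KO minus WT, was 0.15 on the log2 scale, against -0.019 over all genes. The 14 that rose did so by 1.22 to 1.96 fold after loess. Nup107, the highest, passed a log2 difference of 1 with Agilent ratios (1.04), Cy5 alone (1.13) and median centring (1.30), and without WT replicate 1 (1.04), KO replicate 2 (1.09) or KO replicate 3 (1.00), and Nup155 did so with median centring (1.01).

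**Figure D1:**
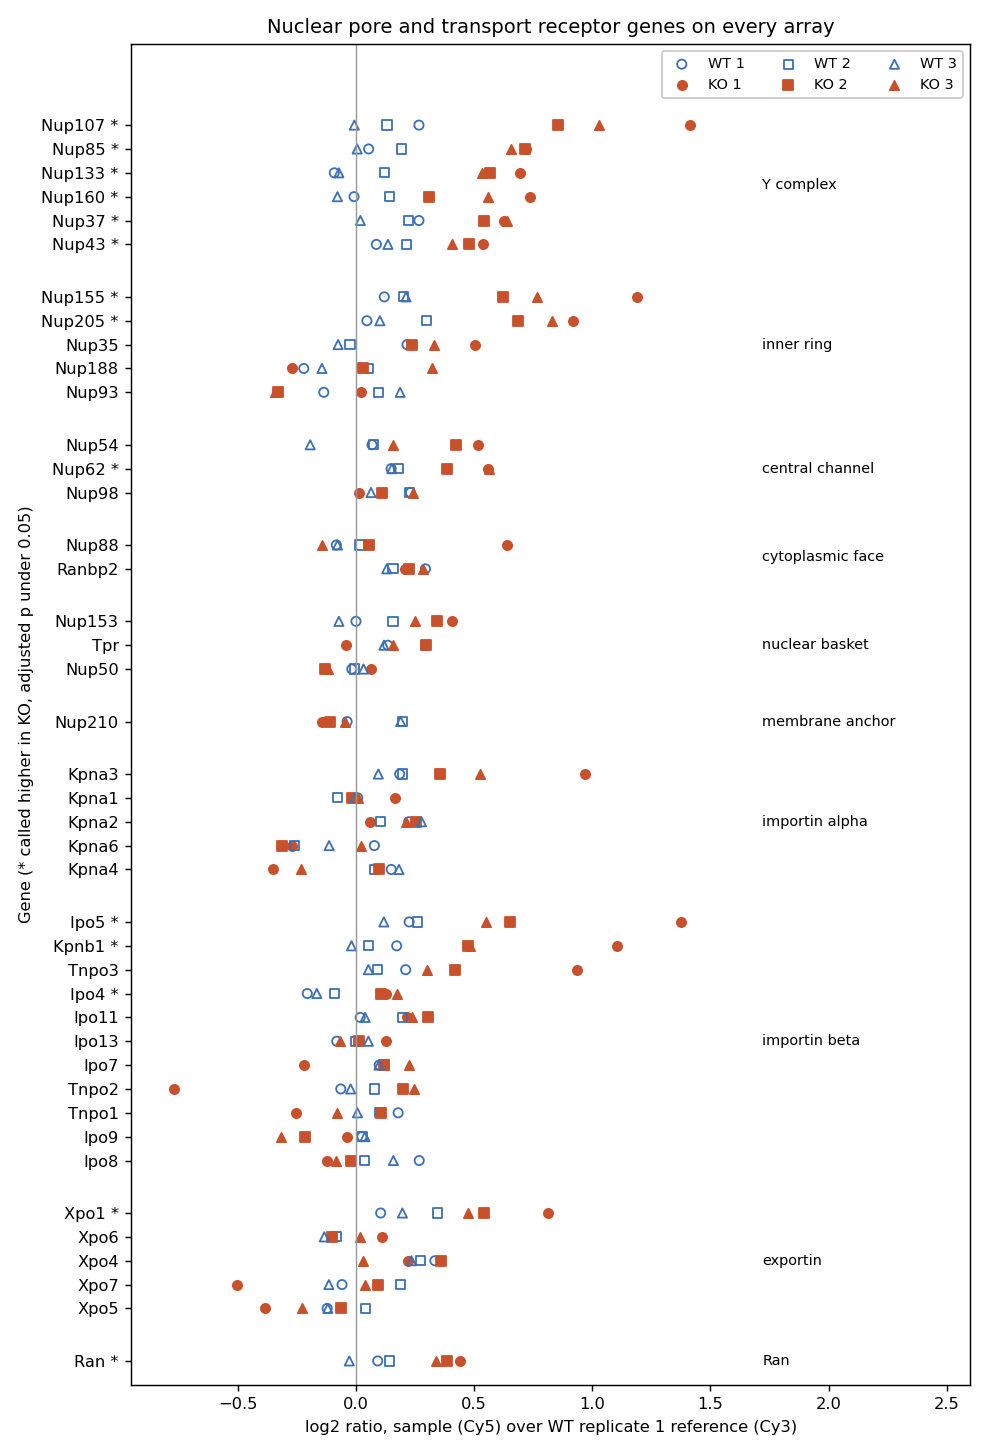
Log2 ratio of sample over the WT replicate 1 reference (x axis) for each of the 42 genes (y axis, grouped by role), with open blue symbols for the 3 WT arrays and filled red symbols for the 3 KO arrays. For the 6 genes grouped under the Y complex every KO symbol lies to the right of every WT symbol. KO replicate 1 lies apart from the other KO arrays for Ipo5, Kpnb1 and Tnpo2.

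The Y complex forms the outer rings of the scaffold and also binds kinetochores in mitosis. Of the set, 6 genes were grouped with it, and all 6 rose, with a median difference of 0.56. Nup98, whose transcript also encodes the Y complex subunit Nup96, was grouped with the central channel. It was not called (difference -0.051, adjusted p = 0.736). Of the Y complex partners with other symbols, described further on, Seh1l rose and Ahctf1 and Sec13 did not pass. Nup107, a stem subunit, had ratios of 0.27, 0.13 and -0.0072 in WT replicates 1 to 3 and 1.41, 0.86 and 1.03 in KO replicates 1 to 3. It had the largest difference of the 42 genes, 0.97 ± 0.16 (SE here and below, n = 3 arrays per group), a 1.96-fold higher level with an adjusted p of 0.0025. Nup85, a short-arm subunit, read 0.053, 0.19 and 0.0050 in WT against 0.72, 0.72 and 0.65 in KO. Its KO arrays lay close together, and the difference was 0.61 ± 0.10 (adjusted p = 0.00239). Nup133, at the foot of the stem, read -0.092, 0.12 and -0.072 in WT and 0.69, 0.57 and 0.54 in KO. The lowest KO value was thus well above the highest WT value, with a difference of 0.61 ± 0.11 (adjusted p = 0.0034). The calls of Nup107, Nup85 and Nup133 held when any single array was left out.

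The other 3 genes grouped with the Y complex rose by less. Nup160, a long-arm subunit, read -0.0083, 0.14 and -0.078 in WT and 0.74, 0.31 and 0.56 in KO, a difference of 0.52 ± 0.13 (adjusted p = 0.0185). Nup37, its partner in the complex of animals, gave 0.27, 0.22 and 0.018 in WT and 0.63, 0.54 and 0.64 in KO (0.43 ± 0.11, adjusted p = 0.0148). Nup43, a peripheral subunit, gave 0.086, 0.21 and 0.14 in WT and 0.54, 0.48 and 0.41 in KO (0.33 ± 0.10, adjusted p = 0.0312). The groups did not overlap for any of these genes. Their adjusted p rose to 0.0802, 0.0693 and 0.107 when single arrays were left out, and the calls were lost without WT replicate 1, WT replicate 3 or KO replicate 3 for Nup160, without WT replicate 3 for Nup37, and without WT replicate 1, WT replicate 3 or KO replicate 2 for Nup43.

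With slide row as a block, KO is in effect set against WT replicate 1 alone, and the called count over all 42 genes fell from 14 to 3, namely Nup85, Nup133 and Nup205, with adjusted p of 0.0346, 0.0326 and 0.027. Nup107 then had an adjusted p of 0.0538. Without WT replicate 1 the count was 6, without WT replicate 3 it was 5 (Nup107, Nup85, Nup133, Nup205 and Nup155), and without KO replicate 1 it was 13. None of the 14 genes changed sign under any alternative tried.

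**Figure D2:**
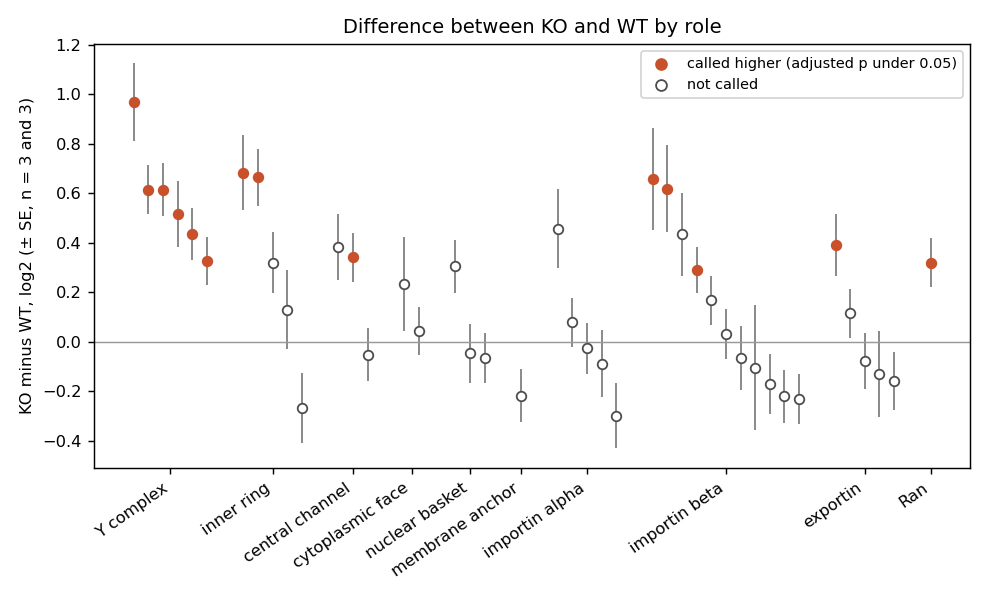
Difference between KO and WT on the log2 scale (y axis, point and SE, n = 3 arrays per group) for each gene, grouped by role (x axis). Filled points are genes called higher, and all 6 of them in the Y complex lie between 0.33 and 0.97, whereas the importin beta group runs from -0.23 to 0.66.

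Promoter windows of some genes of the set, picked by name and not to represent the set, are shown to set windows with and without a call side by side. They run from 250 bases before to 50 after the gene's start, are from RefSeq (GRCm38.p6) and were matched by symbol for 34 of the 42 genes. They are written 5′ to 3′ on the gene's strand, and capitals mark matches on either strand to the letters searched for NRF1 (GCGCATGCG), ETS factors (CCGGAAG) and YY1 (AAGATGGC). The windows belong to Nup107 (chr10:117792656-117792955, minus strand) and to Nup155 (chr15:8109063-8109362), Ran (chr5:129019906-129020205) and Nup50 (chr15:84923178-84923477), all 3 on the plus strand. Nup107, Nup155 and Ran rose, and Nup50 was not called. Only Nup107 of these was grouped with the Y complex.
Nup107: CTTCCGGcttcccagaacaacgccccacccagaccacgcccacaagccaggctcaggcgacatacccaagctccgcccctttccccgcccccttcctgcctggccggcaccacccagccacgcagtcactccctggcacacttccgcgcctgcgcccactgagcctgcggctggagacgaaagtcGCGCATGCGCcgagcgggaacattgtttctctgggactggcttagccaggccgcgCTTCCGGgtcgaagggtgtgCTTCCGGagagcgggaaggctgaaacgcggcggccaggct
Nup155: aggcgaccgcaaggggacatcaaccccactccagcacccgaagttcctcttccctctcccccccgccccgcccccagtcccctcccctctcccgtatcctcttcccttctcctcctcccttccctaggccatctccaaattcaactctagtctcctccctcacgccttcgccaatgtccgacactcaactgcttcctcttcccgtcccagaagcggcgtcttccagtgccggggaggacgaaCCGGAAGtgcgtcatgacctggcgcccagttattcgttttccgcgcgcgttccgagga
Ran: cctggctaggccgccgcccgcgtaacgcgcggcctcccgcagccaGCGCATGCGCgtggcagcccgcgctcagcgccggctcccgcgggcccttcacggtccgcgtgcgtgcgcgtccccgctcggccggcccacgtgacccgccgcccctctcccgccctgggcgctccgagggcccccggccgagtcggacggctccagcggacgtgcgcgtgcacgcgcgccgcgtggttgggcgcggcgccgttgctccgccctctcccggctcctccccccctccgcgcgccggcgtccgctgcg
Nup50: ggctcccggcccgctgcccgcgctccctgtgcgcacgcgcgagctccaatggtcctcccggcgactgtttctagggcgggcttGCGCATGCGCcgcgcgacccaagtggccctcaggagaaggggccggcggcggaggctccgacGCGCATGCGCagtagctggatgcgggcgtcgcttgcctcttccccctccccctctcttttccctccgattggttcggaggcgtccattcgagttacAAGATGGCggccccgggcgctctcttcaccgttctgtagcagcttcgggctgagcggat
The palindrome in the Nup107, Ran and Nup50 windows gives 2 overlapping NRF1 matches, 1 on each strand, and Nup50 holds it at 2 places.

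The NRF1 letters were found in 5 of 41 windows of the set (12.2%), against 1.75% of all 32851 windows of that length. They belonged to Nup107, Nup62 and Ran, which rose, and to Nup50 and Xpo5, which did not pass. The ETS letters were found in 7 of 41 windows (17.1%) against 8.86% of all windows, in Nup107, Nup155, Nup37, Ipo4, Nup54 and Tnpo3. The YY1 letters were in 4 windows (9.76% against 2.75%), those of Nup205, Nup50, Nup88 and Nup188, and the E2F letters (TTTCGCGC) in 1 window (2.44% against 0.323%), that of Ipo7. The CCAAT letters were in 21 windows (51.2% against 37.4%). The windows of the set were richer in G and C, with a median of 64.7% against 52.7% for all windows, and the part of base composition in these shares was not tested. A match is a description of the letters and not of binding.

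In the inner ring, which lines the pore wall, 2 of 5 genes rose. Nup205, a large scaffold protein, had ratios of 0.046, 0.30 and 0.10 in WT and 0.92, 0.69 and 0.83 in KO, a difference of 0.66 ± 0.11 (adjusted p = 0.00327). Nup155, which anchors the ring at the membrane, read 0.12, 0.20 and 0.21 in WT and 1.19, 0.62 and 0.77 in KO (0.68 ± 0.15, adjusted p = 0.00976). Both genes kept their calls without any single array. Nup35, a small membrane-binding linker, read 0.22, -0.025 and -0.076 in WT and 0.50, 0.24 and 0.33 in KO. The groups did not overlap, but the lowest KO value was only just above WT replicate 1, and the difference of 0.32 ± 0.12 did not pass (adjusted p = 0.0769). A second Nup35 probe gave the same 0.32, and with Cy5 alone the gene passed (adjusted p = 0.029). Nup188, a close relative of Nup205 in structure, gave 0.13 ± 0.16, and its second probe past the filter gave -0.095. Nup93, which joins the scaffold to the central channel, gave -0.27 ± 0.14 (adjusted p = 0.174), with the KO value of replicate 1 at 0.019 and those of replicates 2 and 3 at -0.33 and -0.34. Without KO replicate 1 the difference of Nup93 was -0.39 and passed as lower (adjusted p = 0.0347).

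In the central channel, whose repeats form the permeability barrier, Nup62 rose. It read 0.15, 0.18 and 0.15 in WT and 0.56, 0.38 and 0.56 in KO, a difference of 0.34 ± 0.10 (adjusted p = 0.0286) that lost its call without any WT replicate or without KO replicate 3, with adjusted p of up to 0.0996. Nup54, its partner in the channel, read 0.068, 0.074 and -0.19 in WT and 0.52, 0.42 and 0.16 in KO. The groups did not overlap, but the gap was narrow at KO replicate 3, and 0.38 ± 0.13 did not pass (adjusted p = 0.0557), though the gene was called with Agilent ratios, with median centring, with Cy5 alone, without KO replicate 3 and with the mean of its probes, of which the second gave 0.58. Nup98, a mobile repeat protein whose transcript also encodes the Y complex subunit Nup96, read 0.23, 0.23 and 0.064 in WT and 0.015, 0.11 and 0.24 in KO. Its groups overlapped fully, with a difference of -0.051 ± 0.11.

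The genes of the cytoplasmic filaments and of the nuclear basket were not called, 0 of 2 and 0 of 3. Ranbp2, the SUMO ligase of the filaments, gave 0.29, 0.16 and 0.13 in WT and 0.21, 0.22 and 0.28 in KO. Nup88, which docks on the cytoplasmic face, read -0.083, 0.014 and -0.078 in WT and 0.64, 0.054 and -0.14 in KO. The differences were 0.043 ± 0.10 and 0.23 ± 0.19, and for Nup88 KO replicate 1 lay above every WT value while KO replicate 3 lay below every WT value. Its usual partner Nup214 had no level. In the basket, Nup153 read -0.00012, 0.16 and -0.072 in WT and 0.41, 0.34 and 0.25 in KO. These did not overlap, and 0.30 ± 0.11 missed the threshold (adjusted p = 0.0563), but Nup153 passed with median centring (0.0454), Cy5 alone (0.0480), the mean of probes (0.0498) and without WT replicate 2 (0.0486). Nup50, a mobile cofactor of importin alpha release, read -0.018, -0.0072 and 0.032 in WT and 0.062, -0.13 and -0.12 in KO. Its KO arrays lay on both sides of WT, and it gave -0.065 ± 0.10, while the basket filament gene Tpr gave -0.045 ± 0.12. Tpr read 0.13, 0.29 and 0.12 in WT and -0.042, 0.30 and 0.16 in KO. A second Tpr probe read -1.81 on KO replicate 1 and 0.32 and -0.16 on KO replicates 2 and 3, a difference of -0.72. The membrane glycoprotein gene Nup210 read -0.038, 0.20 and 0.19 in WT and -0.15, -0.11 and -0.046 in KO. All of its KO values lay below WT, with a difference of -0.22 ± 0.11 (adjusted p = 0.149). A second Nup210 probe gave -0.34, with groups that overlapped.

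Importin alpha genes, which encode the adaptors that read classical nuclear localisation signals, were not called, 0 of 5, with a median difference of -0.027. Kpna2, the form associated with dividing and embryonic cells, read 0.22, 0.11 and 0.28 in WT and 0.060, 0.26 and 0.21 in KO. The groups overlapped, with a difference of -0.027 ± 0.10, and 3 further probes gave 0.069, 0.18 and 0.24, so its sign depended on the probe. Kpna3 read 0.18, 0.20 and 0.095 in WT and 0.97, 0.36 and 0.52 in KO. Its groups did not overlap, and 0.46 ± 0.16 missed the threshold (adjusted p = 0.0563), but it passed with median centring (0.0165), Cy5 alone (0.0452) and without KO replicate 2 (0.0332). Without KO replicate 1 the difference was 0.28, and with the mean of its probes 0.099. Of the other Kpna3 probes, the second gave -0.34, with -1.47 on KO replicate 1 against 0.32 and 0.24 on KO replicates 2 and 3, and the third gave 0.18. Kpna4, the closest paralog of Kpna3, read 0.15, 0.079 and 0.18 in WT and -0.35, 0.10 and -0.23 in KO. Its difference of -0.30 ± 0.13 was the lowest of the set and did not pass (adjusted p = 0.115), but without KO replicate 2 it was -0.43 and passed as lower (adjusted p = 0.0332). Kpna1 read 0.0074, -0.077 and -0.0056 in WT and 0.17, -0.016 and 0.010 in KO. These overlapped, with a difference of 0.078 ± 0.10, and Kpna6 gave -0.088 ± 0.13. A second Kpna6 probe gave -0.38, with every KO value below every WT value. The importin alpha genes are paralogs, and whether a probe shares signal with a relative was not tested.

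Among the importin beta family, the carriers that cross the pore, 3 of 11 rose and the differences ran from -0.23 to 0.66. Kpnb1, importin beta itself, read 0.17, 0.051 and -0.019 in WT and 1.10, 0.48 and 0.48 in KO. All KO values lay above WT with KO replicate 1 far above the others, and the difference was 0.62 ± 0.18 (adjusted p = 0.028). Ipo5, a carrier of ribosomal proteins and histones, had the same shape, with 0.22, 0.26 and 0.12 in WT and 1.37, 0.65 and 0.55 in KO (0.66 ± 0.21, adjusted p = 0.0401). A second Ipo5 probe gave 0.48. Ipo4, also a carrier of histones and ribosomal proteins, read -0.21, -0.090 and -0.17 in WT and 0.13, 0.10 and 0.17 in KO. It moved less but more evenly (0.29 ± 0.093, adjusted p = 0.0429). Kpnb1 lost its call without any WT replicate, Ipo5 without any WT replicate or KO replicate 2, and Ipo4 without any WT replicate or KO replicate 2 or 3. Their highest adjusted p in these fits were 0.101, 0.128 and 0.136. Ipo5 was also not called with Agilent ratios (adjusted p = 0.0615), nor Ipo4 with Cy5 alone (adjusted p = 0.102). Without KO replicate 1 all 3 stayed called, but the difference of Ipo5 was 0.40 in place of 0.66 and that of Kpnb1 0.41 in place of 0.62.

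The other importin beta genes did not pass after loess. Tnpo3, the carrier of splicing factors, gave 0.43 ± 0.17 (adjusted p = 0.0785). It passed with median centring (0.0163), Cy5 alone (0.0102) and without KO replicate 3 (0.0444), and without KO replicate 1 the difference was 0.24. Ipo11 gave 0.17 ± 0.10. Tnpo2 read -0.064, 0.077 and -0.023 in WT and -0.77, 0.20 and 0.25 in KO, so its difference of -0.10 ± 0.25 averaged KO arrays on either side of WT. Ipo8 and Ipo9 lay below WT on every KO array, with -0.23 ± 0.10 and -0.22 ± 0.11, and Ipo9 passed as lower only without KO replicate 1 (-0.30, adjusted p = 0.0373). Tnpo1, Ipo7 and Ipo13 gave -0.17, -0.064 and 0.033. A second Tnpo1 probe gave -0.26, with every KO value below every WT value.

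Of the exportins, 1 of 5 rose. Xpo1, the main exporter of proteins with leucine-rich signals, read 0.10, 0.35 and 0.20 in WT and 0.81, 0.54 and 0.47 in KO, a difference of 0.39 ± 0.13 (adjusted p = 0.0422). Its second probe gave 0.24, and the call was lost with the mean of the probes and without WT replicates 1 or 3 or KO replicates 1 or 2 (adjusted p up to 0.134). Xpo5, the exporter of microRNA precursors, read -0.12, 0.041 and -0.12 in WT and -0.38, -0.064 and -0.23 in KO (-0.16 ± 0.12, adjusted p = 0.326). Xpo6, the exporter of actin, read -0.10, -0.084 and -0.13 in WT and 0.11, -0.10 and 0.019 in KO (0.12 ± 0.10). These groups overlapped for both genes. Xpo4 and Xpo7 gave -0.078 ± 0.11 and -0.13 ± 0.17, and a second Xpo7 probe gave 0.52, with 0.85, 0.70 and 0.47 in KO. Ran, which gives transport its direction, read 0.092, 0.14 and -0.028 in WT and 0.44, 0.38 and 0.34 in KO. The KO arrays lay close together above WT, the difference was 0.32 ± 0.10 (adjusted p = 0.0362) and a second probe gave 0.41. The call of Ran was lost without any WT replicate and without KO replicates 2 or 3 (highest adjusted p 0.147) and with Agilent ratios (adjusted p = 0.071).

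**Figure D3:**
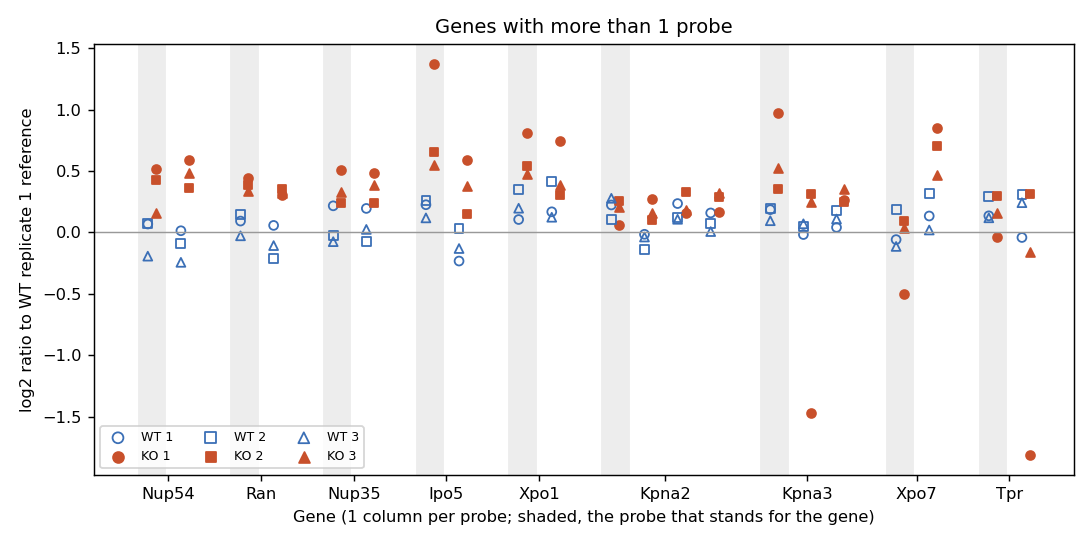
Log2 ratio to the WT replicate 1 reference (y axis) on each array for 9 of the 13 genes with more than 1 probe past the filter, with 1 column per probe, WT as open blue and KO as filled red symbols, and the probe that stands for the gene shaded. The probes of Nup54, Ran, Nup35, Ipo5 and Xpo1 agree in direction, whereas 1 probe each of Kpna3 and Tpr reads -1.47 and -1.81 on KO replicate 1. Kpna6, Nup188, Nup210 and Tnpo1 are not drawn.

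In all, 13 genes had several probes past the filter, and in 4 of them (Kpna2, Kpna3, Nup188 and Xpo7) the probes differed in sign. KO replicate 1 was the highest of the KO arrays for 11 of the 14 genes that rose, KO replicate 3 for the other 3. The median of KO replicate 1 minus the mean of KO replicates 2 and 3 was 0.15 over the 14 genes and 0.090 over the 42, against 0.081 over all genes. The median ratio over the 42 genes was 0.082, 0.12 and 0.035 in WT replicates 1 to 3 and 0.21, 0.25 and 0.24 in KO replicates 1 to 3, so the arrays of a group were close in the median while single genes spread on KO replicate 1.

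Directions of small changes depended on how the arrays were scaled. When arrays were centred on their medians and loess was left out, the median difference of all genes went from -0.019 to 0.24 and the share of higher calls among all called genes from 43.4% to 74.3%. Relative to the median of all genes, the median of the 42 was 0.17 after loess, 0.20 from Agilent ratios, 0.20 after median centring and 0.20 from Cy5 alone. The number of genes that rose was 13, 18 and 18 with these 3 alternatives, and 0 were lower in each. Of the 42 differences, 16 were below 0 after loess, 15 with Agilent ratios, 14 with Cy5 alone and 1, that of Kpna4, after median centring. The other negative signs of the set thus did not hold against 0 under median centring. The count above the median of all genes moved little. It was 26 of 42 after loess, 27 with Agilent ratios, 28 after median centring and 28 with Cy5 alone.

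**Figure D4:**
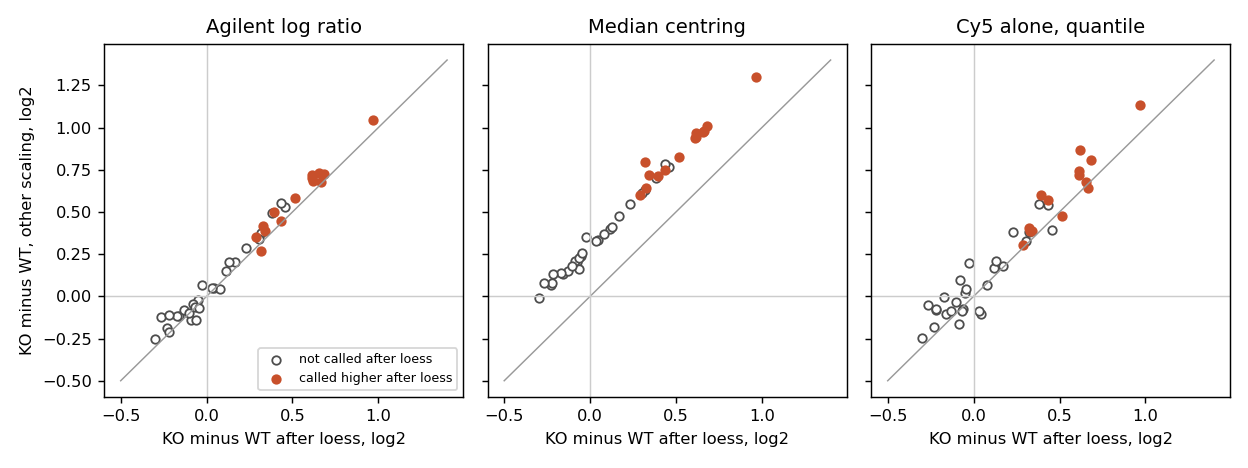
Difference between KO and WT (log2) of each of the 42 genes after loess (x axis) against the same under 3 other scalings (y axis), with the line of equality in grey. Filled points are the 14 genes called after loess. Median centring places the genes above the line, where the median of all genes moved to 0.24.

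Genes that work beside the set were read from lists of pathway genes. Of 12 tested genes for further pore proteins and transport receptors, 6 rose and 0 fell, with a median of 0.38. Cse1l, the exportin that returns importin alpha to the cytoplasm, read 0.17, 0.061 and -0.20 in WT and 1.06, 0.49 and 0.89 in KO and rose by 0.80 ± 0.17 (adjusted p = 0.00771). Seh1l, a Y complex subunit, rose by 0.57 ± 0.12 (adjusted p = 0.00819), and Aaas, the gene of the pore protein aladin, by 0.55 ± 0.13 (adjusted p = 0.0117). Nupl2, Xpot and Pom121, named here with Ahctf1, Sec13 and Rangap1 after their values were seen, rose by 0.41, 0.43 and 0.36. Of the Y complex partners outside the symbol rule, Ahctf1, which seeds pore assembly on chromatin, gave 0.42 ± 0.15 and Sec13, shared with COPII coats, 0.11 ± 0.098, and neither passed. The remaining genes of this list, Ranbp17, Gle1, Rae1 and Nupl1, gave 0.15, 0.12, -0.031 and -0.13 and did not pass either. Ndc1 was not well above background.

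Of 6 genes of the Ran cycle 3 rose, with a median of 0.23. Ranbp1, which helps release Ran from carriers, read -0.026, -0.060 and -0.26 in WT and 0.90, 0.32 and 0.41 in KO and rose by 0.66 ± 0.16 (adjusted p = 0.016). Nutf2, which imports Ran, rose by 0.36 ± 0.10 (adjusted p = 0.0286) and Rcc1, the exchange factor on chromatin, by 0.34 ± 0.11 (adjusted p = 0.0459). Rangap1, which triggers GTP hydrolysis outside the nucleus, gave -0.044 ± 0.18. On the list for export of mRNA and small nuclear RNA, 0 of 23 tested genes rose and 2 fell. These were Ddx19a (-0.43 ± 0.11, adjusted p = 0.0195) and Zc3h11a (-0.33 ± 0.10, adjusted p = 0.0357). Among all genes tested 15.3% rose and 20.0% fell. At an unadjusted p under 0.05, Nxt1, Pcid2, Sarnp, Ddx39b and Mcm3ap were higher, each with every KO array above every WT array. The median over that list was 0.16, close to that of the 42 genes, and Nxt1, the cofactor of the mRNA exporter, gave 0.28 ± 0.097 (adjusted p = 0.0565).

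Replication and mitosis genes were higher on the same arrays. Of 18 tested, 17 rose and 0 fell, with a median of 0.63, and array medians ran from -0.014 to 0.11 in WT and from 0.53 to 0.79 in KO (Aurkb was not well above background). Mcm3, a subunit of the replicative helicase, rose by 1.10 ± 0.12 (adjusted p = 0.000477), Ccna2, the gene of cyclin A2, by 0.79 ± 0.11 (adjusted p = 0.0011) and Top2a, the mitotic topoisomerase, by 0.85 ± 0.12 (adjusted p = 0.00145). The Y complex medians on the same arrays were -0.0011 to 0.17 in WT and 0.56 to 0.71 in KO. Whether the pore genes moved apart from these genes was not tested.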

How the data were processed

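Dual-channel Agilent arrays of 3 KO and 3 WT samples were read from the deposited scanner files. The intensity values in the deposited files are median spot and background signals per channel, written by Feature Extraction 10.7.3.1 per the file headers (6.1 per the submitters' processing notes). The log10 ratios in the deposited files are Agilent's own of Cy5 over Cy3, and were used as an alternative, as was the deposited series table. The series table differed from these ratios by at most 0.0050 in log10, so it is not a separate check. Signals were corrected with normexp (offset 50), normalised within arrays by loess with control spots at weight 0, and averaged per probe in limma 3.58.1 under R 4.3.3. A probe had to be well above background in Cy5 on at least 3 arrays, and the brightest such probe stood for its gene. KO was compared with WT by lmFit and eBayes with Benjamini-Hochberg adjustment over 14755 genes at 0.05. The script was tested on simulated data. The number of arrays limits the precision. Values on every array are given for Ran, Kpnb1, Xpo1, Kpna2, the 3 genes of smallest p per role and those needed to show a spread. Up to 3 genes of smallest p per other list are given by difference and SE, with array values for Cse1l and Ranbp1 only. The members and lists were chosen with earlier results of these data known. Scaling, filter, probe choice, slide row, replicate number and single arrays were varied as alternatives. Protein sequences were not used here, and motif searches covered both strands of RefSeq promoter windows.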

Additional observations from a re-analysis of the deposited data

How the results depend on the processing

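None of the 14 calls turned direction under any alternative, and all sign changes were in genes not called on either side. With slide row as a block, 2204 genes changed against 5214, 3 genes of the set rose against 14, and the median difference of the set was 0.19 against 0.15. It was 0.20 with Agilent ratios, 0.20 with the deposited series table, which holds nearly the same ratios, 0.44 with median centring and 0.21 with Cy5 alone. Leaving out single arrays gave 3243 to 5715 changed genes, 5 to 13 genes of the set higher, 0 to 2 lower and a median of 0.13 to 0.22. Samples sharing a replicate number deviated together weakly (correlations 0.14, 0.083 and 0.20), so the numbers were not taken as pairs, although each sample correlated best with its own number. With the replicate block, 5130 genes changed and 12 of the set rose, 9 of them among the 14. Nup62, Xpo1, Ipo4, Ran and Nup43 lost their calls and Nup54, Kpna3 and Tnpo3 passed. Signs turned with Agilent ratios and the series table for Kpna2 (0.066 and 0.065), with the mean of probes for Xpo7 (0.19) and Kpna2 (0.12), and with slide row for Ranbp2 (-0.057) and Tpr (0.0026). With Cy5 alone they turned for Nup98 (0.023), Ranbp2 (-0.10), Xpo4 (0.10), Kpna2 (0.20), Ipo13 (-0.089) and Tpr (0.045). With median centring they turned for Nup98 (0.24), Xpo5 (0.13), Xpo7 (0.15), Xpo4 (0.20), Kpna6 (0.21), Kpna2 (0.35), Ipo8 (0.065), Ipo9 (0.079), Tnpo1 (0.14), Ipo7 (0.16), Tnpo2 (0.18), Nup93 (0.081), Nup210 (0.13), Nup50 (0.23) and Tpr (0.26), where all genes moved up. Without single arrays, values ran from -0.11 to 0.0025 for Nup98, -0.24 to 0.061 for Xpo7, -0.16 to 0.0090 for Xpo4, -0.19 to 0.00057 for Kpna6, -0.075 to 0.031 for Kpna2, -0.16 to 0.066 for Ipo7, -0.28 to 0.23 for Tnpo2, -0.019 to 0.079 for Ipo13, -0.017 to 0.28 for Nup188 and -0.12 to 0.044 for Tpr. The cause of these changes was not tested.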

Other observations

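Genes of the nuclear lamina and envelope, the structures in which pores sit, moved in both directions. Of 17 tested, 5 rose and 3 fell, with a median difference of 0.059. Tmpo, which encodes lamina-associated polypeptides, rose by 0.73 ± 0.13 (limma, adjusted p = 0.00322, n = 3 arrays per group). Syne1 and Syne2, which link the envelope to the cytoskeleton, differed by -1.65 ± 0.19 (adjusted p = 0.000538) and -0.74 ± 0.14 (adjusted p = 0.0054).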
